A study of Strongylocentrotus purpuratus with 9 samples.

Results

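Closely spaced groups of accessible chromatin were described in the gastrula of the purple sea urchin, Strongylocentrotus purpuratus. They were taken from 1 list of 30866 open chromatin regions on 3836 scaffolds. A chain was a run of successive regions on a scaffold in which no gap, that is the stretch between 2 listed regions, exceeded 2000 bp. The members were the regions of at most 1000 bp in chains of 3 or more. They were thus chosen by the measured positions and widths of the regions themselves, and gaps and chain sizes are given below as a description. There were 602 such chains with 1935 regions, of which 1916 were members, or 6.21% of the list. The other 19 regions were wider than 1000 bp, stood in 19 different chains and counted towards the chain but not as members. Members covered 0.611 Mb, which was 5.46% of the listed bases.

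The list came from ATAC-seq, in which the transposase Tn5 cuts accessible DNA and inserts sequencing adapters. It was named for 4 libraries of embryos at 2 dpf (days post fertilisation): 2 of isolated gut and 2 of whole embryos. The titles of the whole-embryo libraries carry the term wt, which the labels do not explain and which the titles of the gut libraries lack. Beyond that the labels name no genotype, strain or treatment, and all embryos were cultured in diluted sea water. Guts had been detached mechanically after incubation in calcium- and magnesium-free medium, so the gut libraries hold the tissue that this step releases. The list has no column for a library or a tissue, and it is therefore described as a whole. A chain may join regions that are open in different cells, and gut and whole embryo cannot be told apart in it. The list carries no score or read count and how deeply a region was sequenced is unknown.

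Developmental genes of animals are often controlled by several separate stretches of regulatory DNA, called cis-regulatory modules, each bound by its own set of transcription factors. In sea urchins the best known case is Endo16, a gene of the embryonic gut, whose upstream DNA is divided into modules that act together to switch the gene on in the right cells, raise its output or repress it elsewhere. Active promoters and enhancers are usually accessible to transposase, so that neighbouring open regions are candidates for such modules. The genes beside the chains were not analysed here, because the genome build of the list is not given in the sources used here, and for the same reason no sequence is shown. Positions are those of the list, counted from 1 on its own scaffolds.

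Most chains were short runs. Of the 602 chains, 495 (82.2%) had 3 regions, 87 (14.5%) had 4, 18 (2.99%) had 5 and 2 had 6. The limits of the definition cut through a continuous range of values. The largest gaps accepted were 1998 bp in pCRM_43624 to pCRM_43626 on Scaffold9 and 1997 bp in pCRM_22794 to pCRM_22797 on Scaffold3. Just outside, pCRM_25095 to pCRM_25097 on Scaffold34 would have formed a chain but for a gap of 2002 bp, and pCRM_30978 to pCRM_30980 on Scaffold47 but for a gap of 2004 bp. At the width limit, the widest members were pCRM_25370 with 994 bp and pCRM_16651 with 987 bp. The narrowest chain regions left out were pCRM_31257 with 1023 bp and pCRM_27010 with 1031 bp.

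Chains measured a few kilobases from end to end. The median span was 3154 bp, the middle 50% lay between 2542 and 3751 bp, and the range was 1262 to 9860 bp. By size, the median was 2971 bp for 3 regions, 4256 bp for 4 and 5968 bp for 5. There were 48 chains of up to 2000 bp and 41 of more than 5000 bp. All chains together spanned 1.97 Mb, of which 635 kb (32.1%) lay inside regions.

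On the scale of a single chain, the median share of the span inside regions was 31.9%, with the middle 50% between 25.6 and 39.9%. Most of a chain was therefore gap. In 45 chains (7.48%) regions took up more of the span than gaps did, and in 10 they took up at least 60%. The median share was 32.7% in chains of 3 and 25.0% in chains of 5. The regions of a chain of 3 added up to a median of 927 bp and those of a chain of 5 to 1514 bp. Most of the added span of longer chains was therefore gap. This is partly built in, because the number of gaps per region rises with chain size. In the plot of coverage against span, the span is also the divisor of the share.

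**Figure D1:**
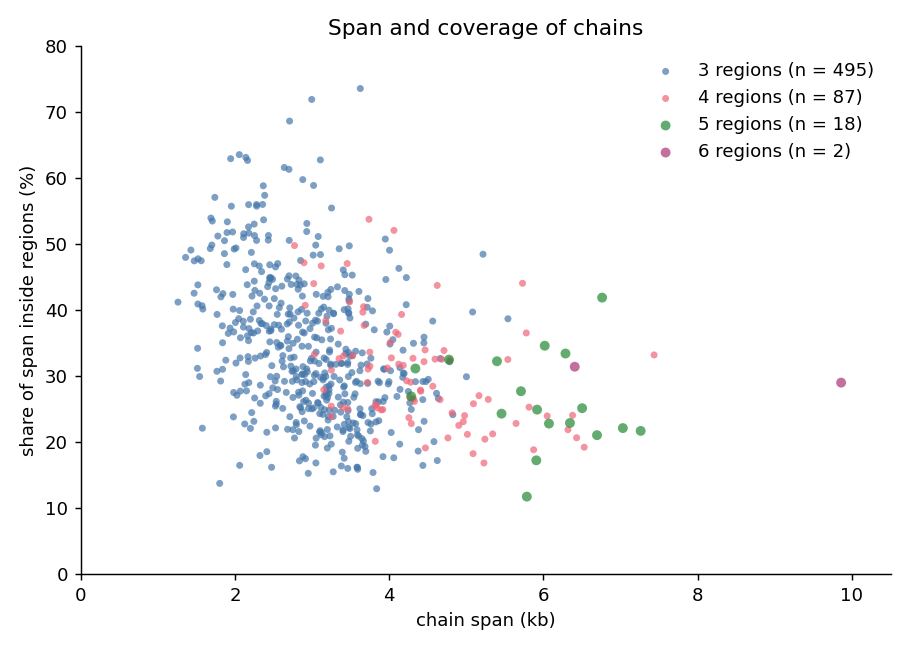
Share of each chain's span that lies inside regions (%) against the span (kb), with 1 point per chain and colours for the number of regions. Chains of 3 spread from 12.9 to 73.6%, while the 18 chains of 5 lie between 11.8 and 41.9%.

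The most densely covered chains had 3 regions and short gaps. In pCRM_45147 to pCRM_45149 on Scaffold97 (58708 to 62333) the regions were 435, 175 and 2057 bp wide and filled 73.6% of 3626 bp. The chain pCRM_9836 to pCRM_9838 on Scaffold1578 (105910 to 108905) had widths of 166, 423 and 1565 bp and a covered share of 71.9%. Both thus owed much of their coverage to a last region over the width limit, which is not a member. The next, pCRM_1054 to pCRM_1056 on Scaffold1045 (98006 to 100714), was made of members only, 893, 385 and 581 bp wide, and covered 68.6% of 2709 bp. At the other end, pCRM_42858 to pCRM_42862 on Scaffold87 (277012 to 282796) covered 11.8% of 5785 bp with 5 regions of 172, 102, 42, 261 and 103 bp.

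The most compact chains were near the smallest spacing in the list, since the shortest listed gap was 301 bp. The chain pCRM_20873 to pCRM_20875 on Scaffold2718 (850 to 2111) spanned 1262 bp, with widths of 203, 192 and 125 bp and gaps of 352 and 390 bp. The chain pCRM_12579 to pCRM_12581 on Scaffold1811 (33968 to 35328) spanned 1361 bp with gaps of 352 and 356 bp, and its middle region was 38 bp wide. The chain pCRM_22134 to pCRM_22136 on Scaffold2908 (13635 to 15064) spanned 1430 bp with gaps of 354 and 374 bp. In each of the 3 chains the 2 gaps were nearly equal. Their choice by shortest span and the shortest listed gap of 301 bp leave little room for unequal gaps.

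The 20 chains of 5 or more regions lay on 18 scaffolds, and 18 of them had names in unbroken number order. They spanned 4286 to 9860 bp, with a median of 6045 bp and a median covered share of 26.0%. The longest, pCRM_4557 to pCRM_4562 on Scaffold123 (930004 to 939863), had 6 regions of 1156, 523, 217, 296, 490 and 179 bp, separated by gaps of 1508, 772, 1807, 1813 and 1099 bp. The first of these regions was over the width limit, so the chain contributed 5 members. The other chain of 6, pCRM_44132 to pCRM_44138 on Scaffold92 (296857 to 303262), was more compact, with widths of 360, 589, 480, 185, 284 and 115 bp and gaps of 696, 404, 1647, 1107 and 539 bp. Its widest regions were the second and the third, and its narrowest the last.

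Among the chains of 5, the layout differed widely. In pCRM_33848 to pCRM_33852 on Scaffold545 (153286 to 160546) the regions were of similar width, 254, 318, 313, 368 and 323 bp, and the gaps were 1164, 1640, 1431 and 1450 bp, which made this the longest chain of 5 at 7261 bp. In pCRM_7459 to pCRM_7463 on Scaffold1400 (135448 to 139733), the shortest at 4286 bp, long and short gaps alternated as 1175, 341, 1290 and 326 bp. In pCRM_32529 to pCRM_32533 on Scaffold507 (142761 to 147100), 4 regions were separated by gaps of 621, 419 and 449 bp and the fifth followed after 1499 bp. In pCRM_14112 to pCRM_14116 on Scaffold1954 (27079 to 33839), widths of 819 and 1142 bp were followed by 445, 119 and 307 bp. Next in span to the chain on Scaffold123 was a chain of 4, pCRM_26522 to pCRM_26525 on Scaffold364 (586502 to 593936), which reached 7435 bp with regions of 294, 676, 861 and 638 bp and gaps of 1732, 1341 and 1893 bp. Even spacing, alternation and a detached end region were thus all present among the long chains.

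**Figure D2:**
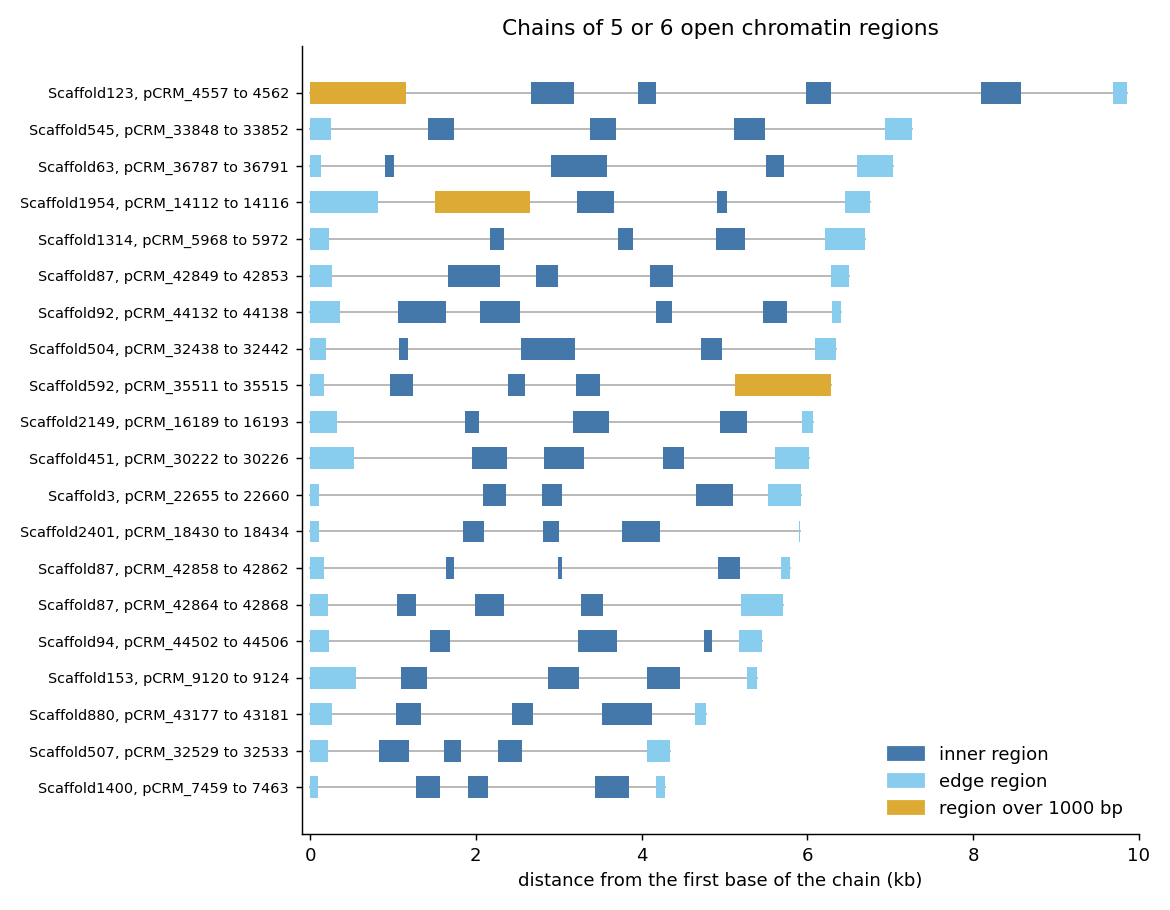
Map of the 20 chains of 5 or 6 regions, ordered by span, with the distance from the first base of the chain (kb) on the horizontal axis. Boxes are regions drawn to scale (dark blue inner, light blue edge, yellow over 1000 bp) and grey lines are gaps. The longest chain, on Scaffold123, reaches 9.86 kb, and 3 of the 20 chains hold a region over 1000 bp.

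The other chains of 5 fell between these layouts. Scaffold1314 carried pCRM_5968 to pCRM_5972 (147603 to 154297, 21.1% covered), in which the gaps of 1939, 1374, 1003 and 969 bp grew shorter along the scaffold. In pCRM_22655 to pCRM_22660 on Scaffold3 (193959 to 199876), with gaps of 1980, 430, 1614 and 419 bp, long and short gaps alternated again. Scaffold2401 carried pCRM_18430 to pCRM_18434 (29957 to 35864), where a region of 15 bp closed a chain of wider regions of 103 to 459 bp. In pCRM_36787 to pCRM_36791 on Scaffold63 (606650 to 613679) and in pCRM_32438 to pCRM_32442 on Scaffold504 (429280 to 435623), the middle region was the widest, with 681 bp and 652 bp. In pCRM_35511 to pCRM_35515 on Scaffold592 (237797 to 244082), the last region had 1161 bp and was no member, while the other 4 were 169 to 294 bp wide. The remaining chains of 5 outside Scaffold87 lay on Scaffold153 (328762 to 334159), Scaffold2149 (26859 to 32930), Scaffold451 (524487 to 530503), Scaffold880 (493807 to 498582) and Scaffold94 (321671 to 327127), with covered shares of 22.8 to 34.6%.

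Inside chains, short gaps were more common than long ones in classes of equal width, as they were inside chains of only 2 regions. The 1333 inner gaps had a median of 921 bp, with the middle 50% between 587 and 1379 bp, and the distance from the centre of a region to the centre of the next had a median of 1267 bp. The class of up to 500 bp held 17.3%, those of 500 to 1000 bp 37.3%, those of 1000 to 1500 bp 26.3% and those of 1500 to 2000 bp 19.2%. The first class is narrower than the others, since no gap was shorter than 301 bp. The 3210 gaps of chains of only 2 regions, which obey the same limit, had a median of 970 bp and corresponding shares of 17.7, 34.2, 26.5 and 21.5%. The medians thus differed by far less than the spread of either set.

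**Figure D3:**
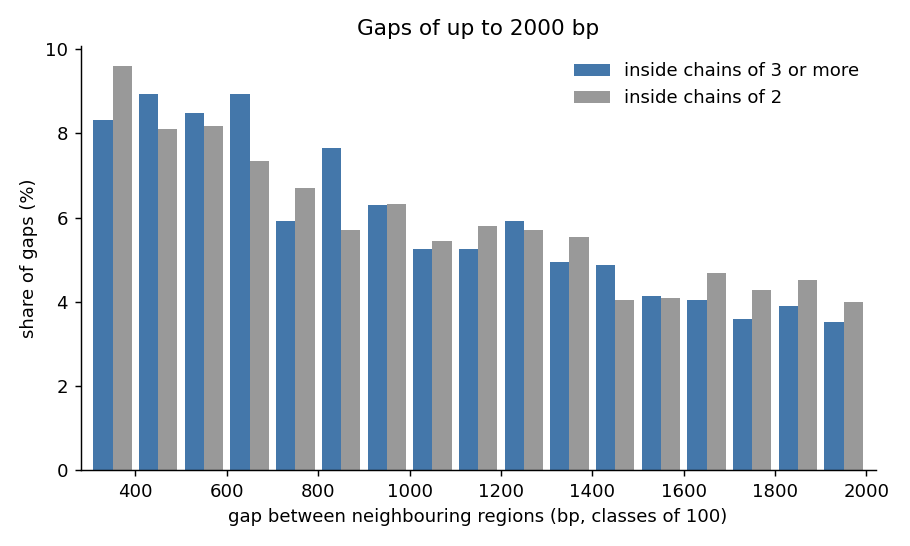
Share of gaps (%) in classes of 100 bp, for the 1333 gaps inside chains of 3 or more (blue) and the 3210 gaps inside chains of 2 (grey). Both sets thin out towards the limit of 2000 bp, with 8.33% of chain gaps and 9.60% of pair gaps in the class of 300 to 400 bp, against 3.53 and 3.99% in the class of 1900 to 2000 bp.

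The evenness of spacing varied between chains. The largest gap of a chain was a median of 1.80 times its smallest, and it reached 5.83 times. The largest gap was less than 1.5 times the smallest in 210 chains (34.9%) and more than 3 times the smallest in 94 chains (15.6%). All gaps were at most 1000 bp in 163 chains and at most 500 bp in 23, while in 108 chains every gap exceeded 1000 bp.

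The 495 chains of 3 allow both gaps to be set side by side. Both gaps were at most 1000 bp in 146 chains (29.5%), only 1 of them in 249 (50.3%) and neither in 100 (20.2%). The first gap along the scaffold had a median of 869 bp and the second of 993 bp. The second was the larger in 270 chains and the first in 225. Scaffold direction follows the assembly and not the orientation of any gene. Across the 495 chains, the correlation between both lengths was -0.01 by Spearman's rho and -0.02 by Pearson's r, which share the limits of 301 and 2000 bp on both axes.

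**Figure D4:**
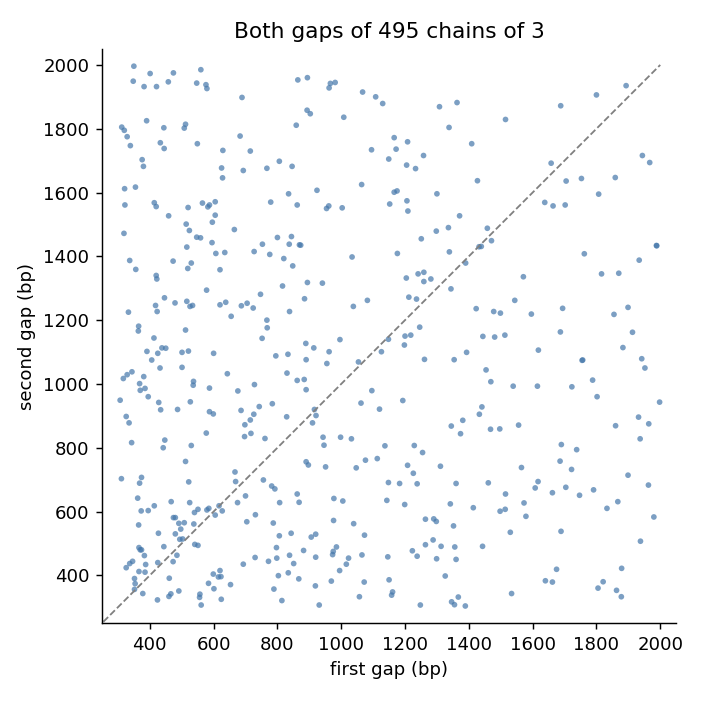
Second gap against first gap (bp) for the 495 chains of 3, with 1 point per chain and the line of equal gaps dashed. Points fill the whole square between 301 and 2000 bp, with 270 above the line and 225 below it.

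In chains of 4 or more, the outer gaps, next to an edge region, had a median of 885 bp and the gaps further inside a median of 1006 bp. Their middle 50% overlapped almost completely, with 659 to 1452 bp for the outer and 624 to 1420 bp for the inner gaps. Gap length was not visibly tied to the width of the regions beside it. The 2 regions flanking a gap of up to 500 bp had a median summed width of 619 bp, and those flanking a gap of more than 1500 bp one of 625 bp.

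Over all chain sizes together, inner and edge members had nearly the same typical width. The 723 inner members had a median of 288 bp (middle 50% 214 to 399 bp) and the 1193 edge members a median of 287 bp (214 to 383 bp). The means were 326 ± 173 bp for inner and 315 ± 166 bp for edge members (SD over regions, which are not replicates). The difference of 10.7 bp in the mean was small beside the SD of either set. Edge members at the low end of a chain had a median of 284 bp and those at its high end one of 289 bp. By chain size, inner and edge medians were 285 and 291 bp in chains of 3 and 292 and 270 bp in chains of 4. In chains of 5 they were 279 and 230 bp, over 53 inner and 35 edge members. These differences by size were not tested.

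Pooled over chain sizes, the 2 sets differed more in their extremes than in the middle. Of inner members, 13 (1.80%) were narrower than 100 bp, against 40 (3.35%) of edge members. Regions of 500 to 1000 bp made up 14.9% of inner members (108) and 12.3% of edge members (147). Of the regions above the limit of 1000 bp, 8 stood inside a chain and 11 at its edge. The narrowest member of all, 2 bp wide, closed the chain pCRM_15546 to pCRM_15548 on Scaffold2083. These shares were not tested, since the list offers no replicate.

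Set against each other within the same chain, inner and edge members gave no common direction when chains of all sizes were pooled. The counts differed between chain sizes, as given below. In the 583 chains made of members only, the mean inner width exceeded the mean edge width in 287 (49.2%) and fell below it in 296. The difference had a median of -2.50 bp and ranged from -683 to 730 bp. The counts by chain size were not tested, and they do not compare like with like. The inner mean rests on fewer regions than the edge mean in chains of 3 and on more in chains of 5. Member widths were skewed, with a median of 287 bp and a mean of 319 bp. With such skew a mean of fewer regions can fall more often below a mean of more, but its part in these counts was not tested. Only chains of 4 set equal numbers side by side, so this point does not apply to them. Inner regions had the larger mean in 222 of 483 chains of 3, in 52 of 83 chains of 4 and in 12 of 16 chains of 5, with median differences of -18.5, 32.0 and 48.3 bp.

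In chains of 3 and 4, the widest region was found at inner places in shares near the share of such places. In chains of 3 made of members, the widest region was the first in 166, the middle in 148 (30.6%, with inner places making up 33.3%) and the last in 168, and 1 chain had a tie. The narrowest was the middle region in 166 of these 483 chains, the first in 156 and the last in 160. In chains of 4, an inner region was the widest in 42 of 83 (50.6%, with inner places making up 50.0%). An edge region was the narrowest in 49 of 82 (59.8%, with edge places making up the other 50.0%). In chains of 5, an inner region was the widest in 12 of 16 (75%), where inner places make up 60.0%. An edge region was the narrowest in 9 of these 16 (56.25%), where edge places are the fewer. These 16 chains are too few to tell whether there is a direction, and these shares were not tested. Within chains of 4, median widths along the scaffold were 265, 284, 303 and 275 bp.

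Regions of 1 chain varied in width. The widest was a median of 2.42 times the narrowest in the 583 chains of members only, and it was more than 3 times the narrowest in 212 of them and less than 1.5 times in 94. Across 1306 pairs of neighbouring members, the correlation of widths was -0.01 by Spearman's rho and -0.03 by Pearson's r. This is a description across regions, which share scaffolds and libraries.

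Members differed from the other regions of the list mainly in how many of them were broad. Under the same limit of 1000 bp, the median width was 287 bp for the 1916 members, 296 bp for the 6313 regions in chains of 2 and 302 bp for the 22054 regions in no chain. The upper quartile showed the larger separation, with 391 bp for members, 417 bp for chains of 2 and 465 bp for regions in no chain. Regions of 500 to 1000 bp accounted for 13.3% of members, 16.7% of regions in chains of 2 and 21.9% of regions in no chain. The lower quartiles lay closer together, at 214 bp for members, 221 bp for chains of 2 and 225 bp for regions in no chain. These differences were not tested.

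Very narrow regions were also a smaller part of the members. Regions under 100 bp made up 2.77% of members (53), 3.66% of regions in chains of 2 (231) and 4.60% of regions in no chain (1014). Regions of exactly 100 bp, the narrow spike in the list, took similar shares, with 1.72% of members, 2.03% of regions in chains of 2 and 1.91% of regions in no chain. The width class of 220 to 300 bp held 29.4% of members, 26.4% of regions in chains of 2 and 25.8% of regions in no chain. Before the width limit was applied, regions over 1000 bp made up 0.982% of all chain regions, 1.67% of regions in chains of 2 and 2.03% of regions in no chain.

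**Figure D5:**
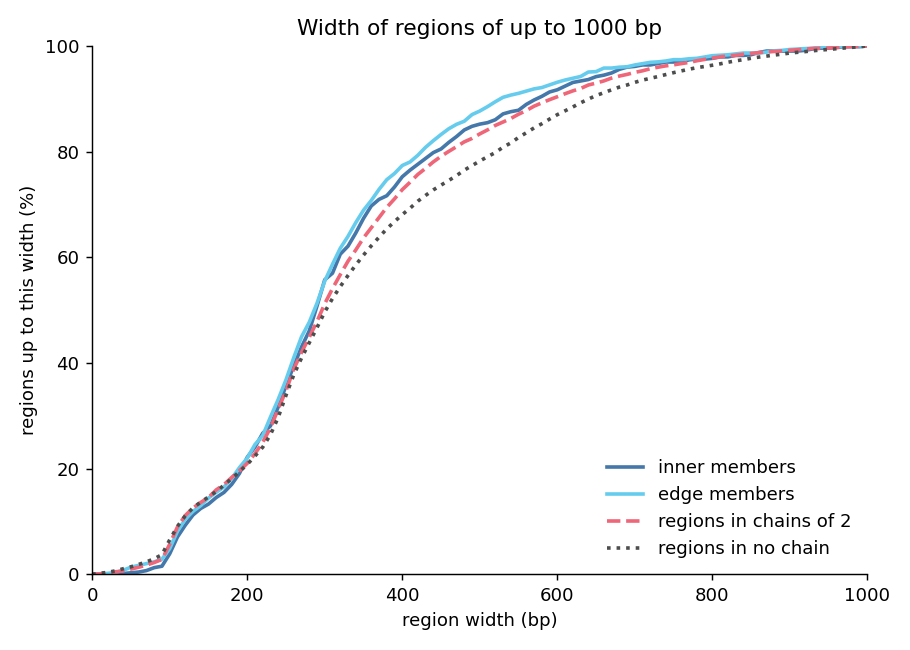
Cumulative share (%) of regions of up to a given width (bp) for inner members (n = 723), edge members (n = 1193), regions in chains of 2 (n = 6313) and regions in no chain (n = 22054), all of at most 1000 bp. The curves lie close together at 190 bp, with 19.1, 20.2, 19.6 and 19.4% in that order, and separate above, where 84.8% of inner and 87.0% of edge members are at most 490 bp wide, against 82.5% of regions in chains of 2 and 77.4% of those in no chain.

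The order of the 3 classes was the same on the 429 scaffolds that carry a chain. There, regions of 500 to 1000 bp were 13.3% of members, 17.6% of regions in chains of 2 and 21.6% of regions in no chain, and the median widths were 287 bp, 301 bp and 305 bp in these 3 classes. Scaffold by scaffold the difference was less regular. The median member was narrower than the median region in no chain on 250 of 424 scaffolds and wider on 174. Members of longer chains had the lowest medians, with 290 bp in chains of 3, 285 bp in chains of 4 and 262 bp in chains of 5. The last rests on only 88 members. In the same order, edge medians were 291, 270 and 230 bp. Inner medians were 285, 292 and 279 bp, with no steady fall.

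Gaps beside a chain were typically shorter than other gaps of more than 2000 bp, with much overlap. The gaps that separate a chain from the next region outside it exceed 2000 bp by definition, and 1099 such gaps had a median of 8347 bp. The 21388 other gaps of more than 2000 bp had a median of 13146 bp, and the 7810 of them on scaffolds with a chain a median of 11952 bp. Gaps of more than 20000 bp were 22.5% of those beside a chain and 34.9% of the others on the same scaffolds. Gaps of 2000 to 5000 bp were 24.7% and 20.3% in the same order. The median gap beside chains was the smaller on 253 of 413 scaffolds and the larger on 160. Of the 524 chains with a region on both sides, 224 (42.7%) had another region within 5000 bp, and 101 (19.3%) had more than 10000 bp clear on both sides. The 42.7% counts the nearer of both sides, and no such share was computed for regions outside chains.

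At the ends of scaffolds the surroundings are not seen in full. A total of 78 chains contained the first or last region of their scaffold, and 3 of them held every region on it. On Scaffold2718, for example, the shortest chain of the list began at position 850.

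Chains were spread over many scaffolds. The 429 scaffolds with a chain were 20.9% of the 2049 with at least 3 regions, and they had a median of 23 regions. There were 316 scaffolds with 1 chain, 74 with 2, 25 with 3 and 14 with 4 or more. The 460 scaffolds with at least 20 regions held 68.1% of the chains and 52.4% of all regions. A scaffold with many regions offers more places for a chain, and these shares were not adjusted for length.

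Scaffold153 and Scaffold520 carried the most chains, 6 each. On Scaffold153 they held 21 of 82 regions (25.6%) and were spread over 862 kb. On Scaffold520 they held 20 of 73 regions (27.4%) over 494 kb. Scaffold113, Scaffold68 and Scaffold87 had 5 chains each, with 17 of 72, 15 of 84 and 22 of 51 regions. Scaffold87 thus had the largest part of its regions in chains among these 5, at 43.1%.

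On Scaffold87, 3 chains of 5 regions stood within 45.5 kb (247128 to 292671). They were pCRM_42849 to pCRM_42853, pCRM_42858 to pCRM_42862 and pCRM_42864 to pCRM_42868, and the stretch contained 19 regions in all, which covered 11.0% of it. The second and the third chain were 4166 bp apart with no region between them. Their make-up differed, since the second had the lowest covered share of all 602 chains, 11.8%, and the third covered 27.7% with widths of 215, 236, 356, 261 and 514 bp. A chain of 3 and a chain of 4 followed on the same scaffold, and in the chain of 4 (pCRM_42889 to pCRM_42892) the gaps were 374, 577 and 442 bp and 49.8% was covered.

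Successive chains were usually far apart. The 173 distances between neighbouring chains of the same scaffold had a median of 80160 bp, and 24 (13.9%) were up to 10000 bp. In 24 cases no other region stood between the chains. At 2 places, chosen after their values were seen, 3 chains followed each other in this way. On Scaffold113 (900689 to 923454), chains of 3, 4 and 3 regions were 6245 and 5341 bp apart and covered 14.0% of 22.8 kb. On Scaffold4 (1029428 to 1048112), 3 chains of 3 were 2234 and 7256 bp apart and covered 14.4% of 18.7 kb.

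The names of the regions carry running numbers, and some numbers are not used by any region of the list. Inside chains this was rare. An unused number fell into 18 of the 1333 inner gaps (1.35%), never more than 1 per chain, and into 53 of the 3210 gaps of chains of 2 (1.65%), against 27.6% of all gaps. The last share concerns gaps of unlike length, since chain gaps are at most 2000 bp and all gaps had a median of 9467 bp. The 18 gaps measured 1096 to 1980 bp, with a median of 1569 bp. Of the gaps that border a chain, 316 (28.8%) contained an unused number, against 33.0% of the other gaps of more than 2000 bp. Whether a number stands for a region that was left out is not known, so the chains describe the list as it is.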

How the data were processed

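ATAC-seq of 2 gut and 2 whole-embryo libraries was represented by 1 deposited list without a header, with a scaffold, first and last coordinate and name per region. The submitters' processing notes name, without saying what each did, MACS2 2.1.2, bedtools 2.27.1, SAMtools 1.7.1, Bowtie2 2.3.4.1 and Trimmomatic 0.38. For the build, the calling threshold, Tn5 offsets and any pooling of libraries the answer is not given in the sources used here. What the authors deposited holds no value per library, score or depth, so no interval on accessibility can be given.

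Coordinates were read as counting from 0, because 33 regions start at 0, and are printed from 1. Regions were sorted by scaffold and start, and chained with a largest gap of 2000 bp. The chains of 5 or more regions, the 3 largest covered shares, the 3 shortest spans, the longest spans, the values nearest the limits and the scaffolds with most chains (ties kept) are named. Other named chains were chosen after their values were seen. Members and lists were chosen with earlier results of these data known. Regions are not replicates, and no test was run. The chaining recovered all planted chains in simulated lists. Tables were handled in pandas 2.3.3 and NumPy 2.4.6 under Python 3.11.15, binomial intervals came from SciPy 1.17.1 and plots from matplotlib 3.10.9. Of the series, the 5 single-cell RNA libraries are not used here.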

Additional observations from a re-analysis of the deposited data

How the results depend on the processing

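Alternatives changed 1 choice at a time. A median or share was taken as moved when it left the 95% binomial interval of its value over regions or chains. For the inner minus edge width, the intervals of both medians were combined. The count of chains was taken as moved when it changed by more than 1.5 times. The intervals treat regions or chains as independent, which they are not, and serve only as a yardstick. Most alternatives share many regions with the main setting, so a value that did not move says little about stability. By these limits 30 of 40 values did not move, among them counts of chains well below the 602 of the report, with 431 after merging regions closer than 500 bp, 410 on scaffolds with 20 or more regions and 524 without chains at scaffold ends. The gap limit mattered most. With a limit of 1000 bp there were 194 chains, with a median span of 2266 bp, a median covered share of 43.2% and 2.02% of members narrower than 100 bp. With a limit of 3000 bp there were 1006 chains, with a median span of 4108 bp and a median covered share of 25.2%. Merging regions closer than 500 bp gave a median span of 3439 bp and a median covered share of 29.7%. Removing regions narrower than 100 bp left 0% of them by construction. Over all chain sizes, the difference of inner minus edge median width was 1 bp. It lay between -4 and 5 bp under the 8 alternatives, on both sides of 0. The share of members of 500 to 1000 bp, added after the data were seen, lay between 13.0 and 14.3%. Leaving out chains with an unused number, chains at scaffold ends, scaffolds with fewer than 20 regions or regions over 1000 bp moved none of the 4 medians and shares beyond their intervals. No paired analysis was possible because gut and whole-embryo libraries share a single list, which also left no replicate to leave out. Without depth, weak and strong regions cannot be told apart.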
